A study of Mus musculus with 12 samples.

Results

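Mast cells are tissue-resident granulocytes that store proteases, heparin and histamine in granules and release them when their receptors are engaged. In mouse skin they are mainly of the connective tissue type, which carries chymases, a tryptase and carboxypeptidase A3. They depend on the receptor KIT for survival and are armed by IgE bound to the high-affinity receptor FcεRI. The set described here holds 10 genes of these cells, picked by their symbols in a count table of 33539 genes. All 10 were found, and all 10 passed the filter on low counts that left 18147 genes to be tested. They are the granule proteases Mcpt4, Cma1, Tpsb2 and Cpa3, the receptors Kit, Fcer1a, Ms4a2 and Mrgprb2, the transcription factor Gata2 and the prostaglandin D2 synthase Hpgds. The table covers 12 RNA-seq libraries of polyadenylated transcripts from mouse skin. There were 4 libraries from skin treated with imiquimod (IMQ), a Toll-like receptor agonist used to model psoriasis, in animals deficient for Tcn2 (Tcn2-/- IMQ), the gene of the vitamin B12 carrier transcobalamin. There were 5 libraries from IMQ-induced skin, which the series' design text describes as wild type, and 3 libraries from wild-type control skin. The sources used here give no strain, age, dose, length of treatment or way of making the deficiency. Nothing in the labels states that each replicate was a different mouse, and the p-values therefore measure only how far these libraries differ, which may be partly technical.

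Library totals lay between 16182324 and 18503487 counts. Tcn2 stood at 1.91 to 5.59 CPM (counts scaled to a common library size with TMM factors) in Tcn2-/- IMQ libraries, at 67.0 to 141 CPM in IMQ libraries and at 19.9 to 85.9 CPM in controls. Markers of epidermis were present in every library, as the skin label says, and so were those of skeletal muscle, which the sample titles name. One library stands apart for the genes described here. In control replicate 1 the fibroblast list summed to 1770 CPM, against 14700 and 19400 CPM in the other controls, and its 10 endothelial, 10 macrophage and 10 fibroblast markers were each at their lowest of the 12 libraries. Its melanocyte list summed to 1430 CPM, against 88.2 and 99.8 CPM in the other controls, and mitochondrially encoded genes took 10.3% of its counts. Control replicates 2 and 3 and IMQ replicate 1 had reads of Xist, from the inactive X chromosome of females, and the other 9 libraries had Y-linked reads. For the 10 genes and for the list medians, comparisons with control are therefore given with and without control replicate 1. In whole skin, fewer mast cells and less RNA per mast cell cannot be told apart.

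The factor GATA2, itself one of the 10 genes, is known to bind GATA sequences at mast cell genes. Promoter sequences were found in RefSeq (GRCm38.p6) for 9 of the 10 genes, and the 250 bases upstream of the start site were searched on both strands for AGATAA and TGATAA, which do not overlap each other in these windows. A match was present for 5 of the 9 genes, which have 11 promoter windows between them. Counted by window, it was present in 5 of these 11, and in 16.6% of the 32851 RefSeq promoters of the same length. Shown are the 2 proteases whose windows hold a match, with the neighbouring chymase Cma1 that holds none, and 2 chains of the IgE receptor, because Fcer1a and Ms4a2 parted in the data below. Each runs 5′ to 3′ on the minus strand up to the base before the start site, and capitals mark matches.
Mcpt4 (chr14:56062311-56062560): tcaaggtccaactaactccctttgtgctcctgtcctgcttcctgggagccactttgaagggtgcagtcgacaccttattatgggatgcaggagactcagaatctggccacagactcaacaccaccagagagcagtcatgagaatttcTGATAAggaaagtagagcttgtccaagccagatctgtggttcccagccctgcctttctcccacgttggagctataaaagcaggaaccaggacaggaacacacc
Cma1 (chr14:55944676-55944925): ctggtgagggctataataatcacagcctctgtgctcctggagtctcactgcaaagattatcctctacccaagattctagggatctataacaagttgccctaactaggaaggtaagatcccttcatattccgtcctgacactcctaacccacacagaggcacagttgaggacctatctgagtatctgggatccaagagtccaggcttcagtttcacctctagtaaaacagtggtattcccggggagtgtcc
Cpa3 (chr3:20242182-20242431): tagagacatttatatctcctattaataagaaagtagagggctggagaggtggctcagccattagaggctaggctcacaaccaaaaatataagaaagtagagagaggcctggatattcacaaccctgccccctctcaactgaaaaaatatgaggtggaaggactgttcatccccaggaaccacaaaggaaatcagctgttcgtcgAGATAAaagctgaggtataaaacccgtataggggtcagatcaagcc
Fcer1a (chr1:173227230-173227479): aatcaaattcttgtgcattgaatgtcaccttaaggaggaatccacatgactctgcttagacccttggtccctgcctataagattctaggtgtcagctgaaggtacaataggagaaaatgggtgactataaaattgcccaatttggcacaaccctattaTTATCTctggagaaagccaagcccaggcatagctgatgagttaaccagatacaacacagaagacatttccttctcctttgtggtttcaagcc
Ms4a2 (chr19:11623720-11623969): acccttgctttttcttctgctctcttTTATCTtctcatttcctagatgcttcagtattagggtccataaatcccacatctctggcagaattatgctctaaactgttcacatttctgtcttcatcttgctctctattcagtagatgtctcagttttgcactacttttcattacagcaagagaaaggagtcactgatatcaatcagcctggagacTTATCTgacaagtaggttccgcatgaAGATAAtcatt
Ms4a2 held 3 matches, the nearest beginning 11 bases before the start, Cpa3 held 1 at 46 bases, Fcer1a 1 at 92 bases and Mcpt4 1 at 103 bases. Mrgprb2 also held a match, and Kit, Gata2 and Hpgds held none in their windows. Other GATA sequences, such as AGATAG, were not searched for. The Cma1 window holds CTATCT, which is AGATAG on the other strand, so a window without a match may still hold a GATA sequence. A match describes letters and not a bound site.

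The granule proteases were the most abundant of the set. Per kilobase of exon, Mcpt4, Cma1, Cpa3 and Tpsb2 were the 4 highest of the 10 genes in 11 of the 12 libraries, and Mcpt4 was the highest in 10. In IMQ skin Mcpt4 stood at 91.7 ± 35.0 CPM per kilobase, Cma1 at 81.2 ± 28.1, Cpa3 at 72.3 ± 31.0 and Tpsb2 at 29.7 ± 10.1 (SD, n = 5). The SD ranges of the first 3 overlapped. Within libraries, Cma1 lay above Cpa3 in each IMQ library, and Mcpt4 lay above Cma1 in all but IMQ replicate 1. In the same libraries Fcer1a stood at 9.69 ± 3.28 and Hpgds at 9.57 ± 5.97 CPM per kilobase, again with overlapping SD ranges. Kit followed at 3.26 ± 0.598 CPM per kilobase. Mrgprb2 stood at 2.21 ± 1.02, Gata2 at 2.18 ± 0.787 and Ms4a2 at 1.88 ± 0.670 CPM per kilobase, with overlapping SD ranges. Exon lengths were those of GENCODE M21, since the authors' annotation release is not given in the sources used here.

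Mcpt4 encodes mast cell protease 4, the chymase that is the functional counterpart in mouse of human chymase. It lies on chromosome 14 (56297086 to 56299770, minus strand, GRCm39). It stood at 89.0, 44.7, 129 and 78.6 CPM in Tcn2-/- IMQ libraries 1 to 4, at 57.4, 65.9, 149, 123 and 113 CPM in IMQ libraries 1 to 5, and at 2.09, 85.7 and 83.8 CPM in control libraries 1 to 3. All 3 groups overlapped, and control replicate 1 lay far below every other library. Cma1, which encodes a second chymase and lies 114953 bases from Mcpt4 (56178908 to 56182132, minus strand), stood at 70.1, 38.3, 117 and 59.4 CPM in Tcn2-/- IMQ skin, at 58.3, 55.6, 126, 103 and 99.1 CPM in IMQ skin, and at 0.605, 65.3 and 51.7 CPM in controls. The order of the libraries was close to that of Mcpt4, with IMQ replicates 3 to 5 and Tcn2-/- IMQ replicate 3 at the top. Chymase genes of this cluster resemble one another, and how reads were divided among them is uncertain.

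Tpsb2, the tryptase of connective tissue mast cells (chromosome 17, 25585279 to 25588072, plus strand), stood at 33.9, 12.6, 61.9 and 38.7 CPM in Tcn2-/- IMQ skin, at 34.4, 29.4, 61.6, 45.4 and 65.9 CPM in IMQ skin, and at 1.21, 36.1 and 19.4 CPM in controls. Cpa3, the carboxypeptidase stored with the chymases and the tryptase (chromosome 3, 20269784 to 20296345, minus strand), stood at 56.9, 21.1, 134 and 96.8 CPM in Tcn2-/- IMQ skin, at 76.5, 47.3, 164, 135 and 126 CPM in IMQ skin, and at 0.715, 71.8 and 80.4 CPM in controls. For both genes the highest library was an IMQ library and the lowest was control replicate 1. Its levels were 2.47% (Mcpt4), 1.03% (Cma1), 4.36% (Tpsb2) and 0.940% (Cpa3) of the mean of the other controls. Tcn2-/- IMQ replicate 2 was the next lowest library for each of these 4 genes.

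**Figure D1:**
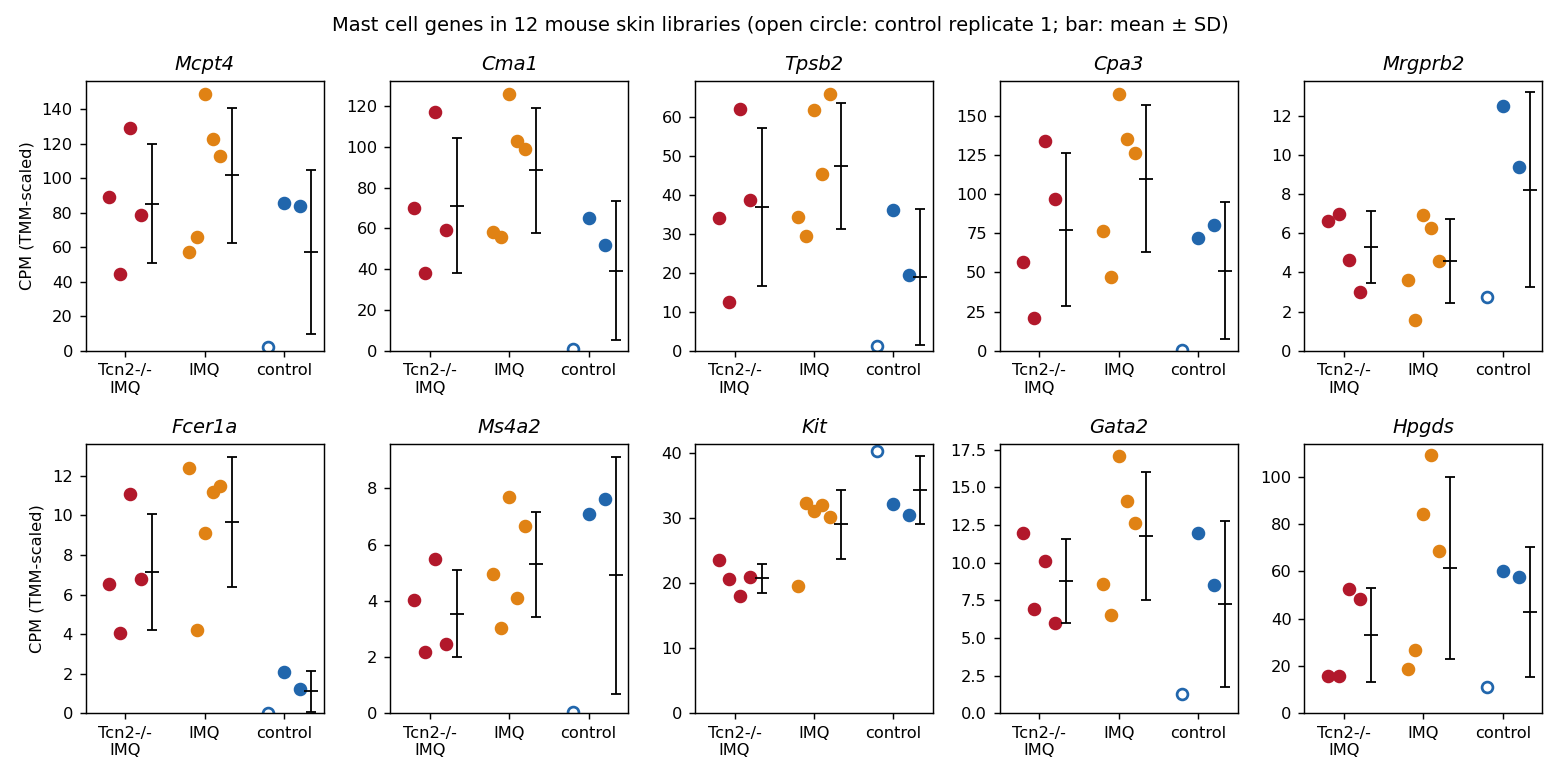
Level of each of the 10 genes in CPM (linear axis) in 4 Tcn2-/- IMQ, 5 IMQ and 3 control libraries; points are libraries, black bars the mean ± SD, and the open circle is control replicate 1. Fcer1a in control skin lies below every IMQ and Tcn2-/- IMQ library, and control replicate 1 lies near 0 for Mcpt4, Cma1, Tpsb2, Cpa3 and Ms4a2 but is highest for Kit.

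Among the receptors, Fcer1a showed the widest separation. It encodes the α chain of FcεRI, the chain that binds IgE (chromosome 1, 173048851 to 173054781, minus strand). It stood at 6.54, 4.05, 11.1 and 6.77 CPM in Tcn2-/- IMQ skin, at 12.4, 4.23, 9.09, 11.2 and 11.5 CPM in IMQ skin, and at 0, 2.08 and 1.25 CPM in controls. Every IMQ-treated library of either genotype lay above every control, and the 2 treated groups overlapped. The control library at 0 had no read of Fcer1a, which allows up to 0.165 CPM by counting error (3 counts). Ranked per kilobase, Fcer1a was the lowest of the 10 genes in each control and ranked 5 or 6 in each treated library. Ms4a2, which encodes the β chain that amplifies signals of the same receptor (chromosome 19, 11592887 to 11601083, minus strand), did not share this pattern. It stood at 4.04, 2.20, 5.50 and 2.45 CPM in Tcn2-/- IMQ skin, at 4.95, 3.05, 7.69, 4.12 and 6.66 CPM in IMQ skin, and at 0.055, 7.08 and 7.61 CPM in controls, so that the groups overlapped. Tcn2-/- IMQ libraries overlapped the controls only through control replicate 1, and each lay below both other controls. The share of all genes that do so was not counted. The third kind of chain, the γ chain gene Fcer1g, is shared with other myeloid Fc receptors and stood at 11.2 to 107 CPM in Tcn2-/- IMQ skin, 101 to 255 CPM in IMQ skin and 8.58 to 109 CPM in controls.

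Kit, the receptor for stem cell factor, is made by melanocytes as well as mast cells (chromosome 5, 75735576 to 75817382, plus strand). It stood at 23.5, 20.6, 18.0 and 20.9 CPM in Tcn2-/- IMQ skin, at 19.6, 32.3, 31.1, 32.0 and 30.1 CPM in IMQ skin, and at 40.3, 32.2 and 30.4 CPM in controls. Each Tcn2-/- IMQ library lay below each control, and IMQ replicate 1 lay among the Tcn2-/- IMQ libraries. The highest Kit level was thus in control replicate 1, the library with almost no granule protease reads. That library also had 408 CPM of Dct, an enzyme of melanin synthesis, against 33.0 and 38.8 CPM in the other controls. Of the 10 melanocyte markers 9 were at their highest of all 12 libraries there. The summed melanocyte list was 40.4 to 454 CPM in Tcn2-/- IMQ skin, 88.0 to 301 CPM in IMQ skin and 88.2 to 1430 CPM in controls, with none of its 10 genes at 0 in control replicate 1. The next highest melanocyte sum, 454 CPM, was in Tcn2-/- IMQ replicate 2, where Kit stood at 20.6 CPM. The lowest, 40.4 CPM, was in replicate 4 of that group, with Kit at 20.9 CPM. The part of melanocytes in the Kit values was not tested. Kitl, which encodes the ligand of KIT, ranged over 54.1 to 136 CPM in Tcn2-/- IMQ skin, 58.3 to 101 CPM in IMQ skin and 67.7 to 144 CPM in controls, and passed in none of the 3 comparisons.

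Mrgprb2 encodes the receptor through which basic peptides and drugs activate mouse mast cells without IgE (chromosome 7, 48200713 to 48207834, minus strand). It stood at 6.60, 6.97, 4.64 and 2.98 CPM in Tcn2-/- IMQ skin, at 3.61, 1.59, 6.91, 6.25 and 4.56 CPM in IMQ skin, and at 2.75, 12.5 and 9.37 CPM in controls. The 2 controls other than replicate 1, both with Xist reads, lay above every treated library. The share of all genes that part in this way without control replicate 1 was not counted. Mrgpr genes form a cluster of similar copies, so reads may be shared between them.

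The remaining genes have a role outside mast cells too. Gata2 is also expressed by endothelium (chromosome 6, 88170873 to 88184014, plus strand). It stood at 12, 6.91, 10.1 and 6.01 CPM in Tcn2-/- IMQ skin, at 8.57, 6.52, 17.1, 14.1 and 12.6 CPM in IMQ skin, and at 1.26, 12 and 8.52 CPM in controls. IMQ replicates 3 to 5, the highest for Gata2, were also highest for the endothelial list, which summed to 286 to 729 CPM in Tcn2-/- IMQ skin, 439 to 1220 CPM in IMQ skin and 74.8 to 501 CPM in controls. Pecam1, an adhesion molecule of endothelium, stood at 55.3 to 157 CPM, 94.6 to 262 CPM and 16 to 108 CPM in the same 3 groups. Hpgds, which makes prostaglandin D2, is found in some macrophages and lymphocytes too (chromosome 6, 65094277 to 65121892, minus strand). It stood at 15.7, 16, 52.6 and 48.2 CPM in Tcn2-/- IMQ skin, at 18.7, 26.6, 84.3, 109 and 68.7 CPM in IMQ skin, and at 11.3, 60.2 and 57.5 CPM in controls. The summed macrophage list was 354 to 4640 CPM in Tcn2-/- IMQ skin, 1860 to 7340 CPM in IMQ skin and 124 to 3760 CPM in controls, and IMQ replicate 4 was highest for both. IMQ replicates 3 to 5 were also the highest of the IMQ group for the granule proteases and for the macrophage and fibroblast lists. The part of endothelium and macrophages in the values of Gata2 and Hpgds was not tested. A gene on the other strand, Gm17147, overlaps Hpgds in the deposited coordinates and had at most 53 counts in a library.

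**Figure D2:**
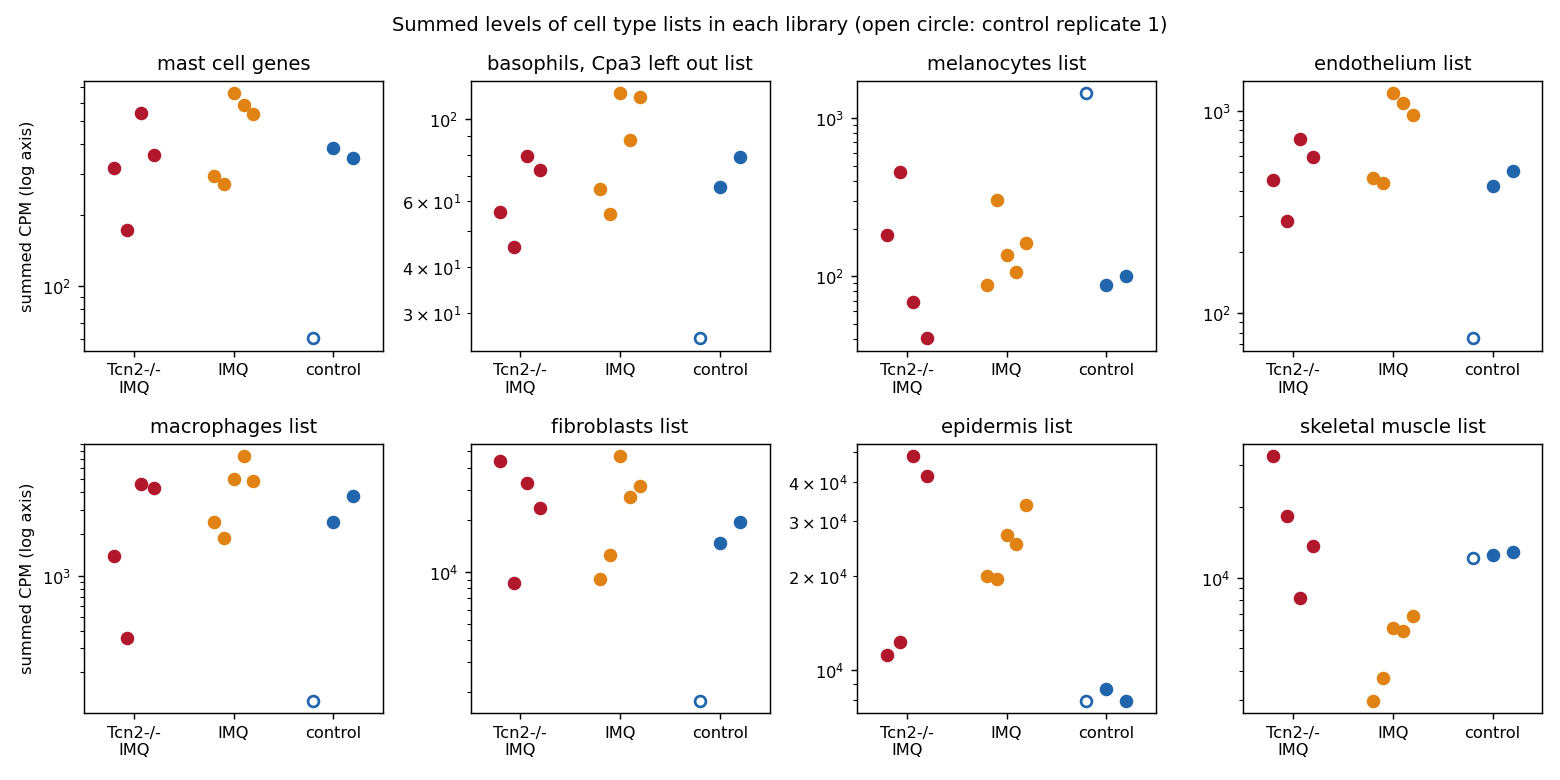
Summed CPM (log axis) of the 10 mast cell genes and of 7 marker lists in each library, by group; points are libraries and the open circle is control replicate 1. That library is lowest for the mast cell, basophil, endothelial, macrophage and fibroblast sums and highest for melanocytes, while its skeletal muscle sum of 12100 CPM lies beside the 12500 and 12900 CPM of the other controls.

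The first comparison asked how these genes differed between IMQ and control skin. None of the 10 had an adjusted p (Benjamini-Hochberg, over all genes) under 0.05 by the quasi-likelihood test of edgeR, where 1.23% of genes tested did, and none did without control replicate 1, where 0.711% did. DESeq2 called Fcer1a alone, where 6.22% of genes were called. At an unadjusted p below 0.05 edgeR had 1 of the 10, Fcer1a, and 15.6% of all genes. Of the 10 genes 8 had higher means in IMQ skin, and 50.4% of all genes had lower ones; the median log2 change was 0.76 beside −0.004 over all genes. Fcer1a was higher by 3.11 on the log2 scale (SE 0.862, adjusted p = 0.109), at 9.66 ± 3.26 CPM in IMQ skin (SD, n = 5) and 1.11 ± 1.05 CPM in control skin (n = 3). It was the member whose libraries did not overlap between IMQ and control skin, as was so for 6.79% of all genes in that direction, and none of the 10 lay lower without overlap, as did 7.4% of all genes. DESeq2 gave Fcer1a 3.14 (adjusted p = 0.000502), and over the other settings its adjusted p lay between 0.0436 and 0.393. The 0.0436 was edgeR's value with control replicate 1 and Tcn2-/- IMQ replicate 2 both left out (log2 change 2.53), the one edgeR setting in which it passed.

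The proteases had positive changes with wide errors. Tpsb2 was at 1.32 (SE 0.771, adjusted p = 0.432), Cma1 at 1.17 (SE 0.877), Cpa3 at 1.10 (SE 0.963) and Mcpt4 at 0.83 (SE 0.784), the last 3 with adjusted p of 0.548 to 0.642. These values rest on control replicate 1. Without it they were 0.77, 0.60, 0.53 and 0.26 (adjusted p 0.589 to 0.852), and the median over the 10 genes was 0.23, beside 0.03 over all genes. Fcer1a kept a difference of 2.53 without it (SE 0.534, adjusted p = 0.0614). Ms4a2 was at 0.11 (SE 0.826, adjusted p = 0.960) and, without control replicate 1, at −0.47 (adjusted p = 0.698). Mrgprb2 was at −0.84 (SE 0.519, adjusted p = 0.462) and, without that library, at −1.25 (SE 0.479, adjusted p = 0.312). Kit (−0.24), Gata2 (0.69) and Hpgds (0.52) had adjusted p of 0.578 to 0.752, and without that library they were at −0.11, 0.20 and 0.07.

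Sex and group were not balanced, so libraries of each kind were also set side by side. Among libraries with Xist reads, Fcer1a stood at 12.4 CPM in IMQ replicate 1 and at 2.08 and 1.25 CPM in control replicates 2 and 3. Among libraries with Y-linked reads it stood at 4.23 to 11.5 CPM in IMQ skin and at 0 in control replicate 1. Fcer1a was thus higher in IMQ skin in both, but among the Y-linked libraries this rests on control replicate 1, the library that stands apart. Mcpt4 was lower in the Xist libraries, at 57.4 CPM in IMQ replicate 1 against 85.7 and 83.8 CPM in controls, and higher in the Y-linked ones, at 65.9 to 149 CPM in IMQ skin against 2.09 CPM in control replicate 1. The second of these rests on the library that stands apart. With a sex term in the fit the median over the 10 genes was 2.38 with control replicate 1 and −0.41 without it.

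The second comparison asked whether Tcn2 deficiency changed mast cell genes in IMQ skin. None of the 10 passed in edgeR's test, where 0.0276% of all genes did (5 of 18147), and none passed without control replicate 1, where 0.508% did. DESeq2 called none of them, where it called 3.32% of genes. At an unadjusted p below 0.05 there was 1 of the 10, Kit, and 11.8% of all genes. Of the 10 genes 9 had lower means in Tcn2-/- IMQ skin, as did 49.2% of all genes, with a median of −0.43 beside 0.01 over all genes. For none of the 10 were the libraries of both groups apart, where 1.71% of all genes lay higher and 3.18% lower without overlap. Kit stood at 20.7 ± 2.24 CPM in Tcn2-/- IMQ skin (SD, n = 4) and 29.0 ± 5.31 CPM in IMQ skin (n = 5), and its log2 change was −0.48 (SE 0.180, adjusted p = 0.327). Hpgds stood at 33.1 ± 20.0 and 61.6 ± 38.4 CPM in Tcn2-/- IMQ and IMQ skin (−0.89, SE 0.631, adjusted p = 0.598). The other changes ran from −0.58 for Ms4a2 to 0.21 for Mrgprb2, each smaller than its SE. Fcer1a was at −0.44 (SE 0.677, adjusted p = 0.823). Without Tcn2-/- IMQ replicate 2, the lowest of its group for the proteases, the median was −0.22, and without replicate 3 it was −0.70. Over the other settings none of the 10 passed, with Kit at −0.60 to −0.42 and adjusted p of 0.111 to 0.581. Skeletal muscle genes summed to 8210 to 32900 CPM in Tcn2-/- IMQ skin and 2980 to 6830 CPM in IMQ skin without overlap, and their part in these lower CPM values was not tested. The Tcn2-/- IMQ libraries were also uneven. Epidermal sums were 11100 and 12300 CPM in replicates 1 and 2, against 48400 and 41900 CPM in replicates 3 and 4. Macrophage sums were 1380 and 354 against 4640 and 4340 CPM. Hpgds stood at 15.7 and 16 against 52.6 and 48.2 CPM, while Mcpt4 overlapped between these pairs. The part of this unevenness in the comparison was not tested.

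The third comparison set Tcn2-/- IMQ skin against control skin, with the same control libraries as the first. None of the 10 passed in edgeR's test, where 1.31% of genes did, and none passed without control replicate 1, where 2.29% did. Of the 10 genes 4 had lower means in Tcn2-/- IMQ skin, as did 49% of all genes. DESeq2 called Fcer1a and Kit, and it called 5.8% of genes. At an unadjusted p below 0.05 edgeR had the same 2 genes, and 12.8% of all genes. Fcer1a stood at 7.10 ± 2.91 CPM in Tcn2-/- IMQ skin (n = 4) and 1.11 ± 1.05 CPM in control skin (n = 3), and its log2 change was 2.67 (SE 0.862, adjusted p = 0.177 in edgeR, 0.00767 in DESeq2). Without control replicate 1 it was 2.09 (SE 0.531, adjusted p = 0.0705). Kit stood at 20.7 ± 2.24 CPM in Tcn2-/- IMQ skin and 34.3 ± 5.26 CPM in control skin (−0.72, SE 0.201, adjusted p = 0.110 in edgeR, 0.0253 in DESeq2). Without control replicate 1, where Kit was highest, it was −0.59 (SE 0.218, adjusted p = 0.190 in edgeR). Fcer1a was higher and Kit lower without overlap of the libraries, as were 4.67% and 5.9% of all genes in those directions. The proteases lay at 0.58 to 0.96, and at 0.01 to 0.41 without control replicate 1. The median over the 10 genes was 0.42, and −0.11 without that library, beside 0.01 and 0.04 over all genes. Ms4a2 was at −0.47 (adjusted p = 0.888), and at −1.05 without it (SE 0.439, adjusted p = 0.252). Hpgds was at −0.38 (adjusted p = 0.890), Mrgprb2 at −0.63 (adjusted p = 0.711) and Gata2 at 0.27 (adjusted p = 0.907), and without that library they were at −0.83, −1.04 and −0.23.

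**Figure D3:**
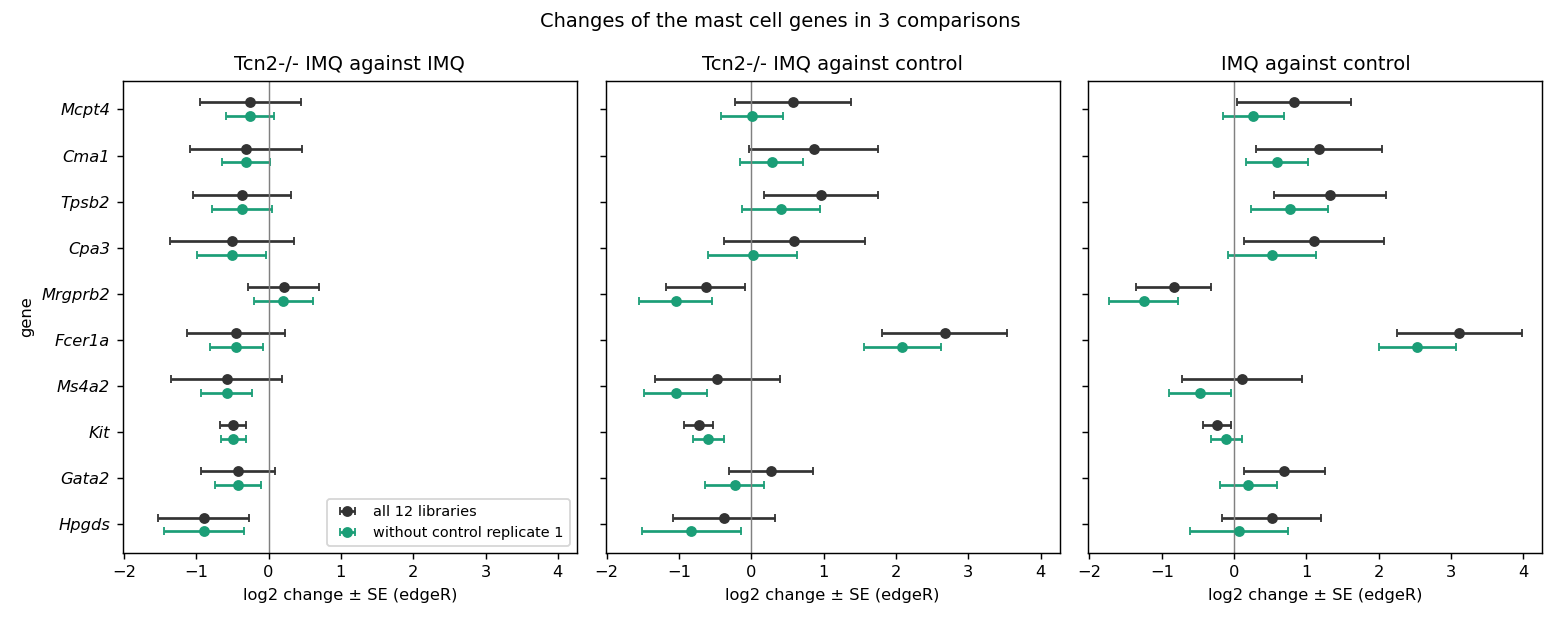
Log2 change ± SE of the 10 genes in the 3 comparisons from edgeR, with all 12 libraries (dark) and without control replicate 1 (green). Fcer1a stands to the right of the others against control in both fits, at 3.11 and 2.53 for IMQ and at 2.67 and 2.09 for Tcn2-/- IMQ, while the changes of the proteases against control shrink without that library.

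Ratios of counts within a library do not depend on the scaling. They were looked at after the values had been seen and were not tested, and control replicate 1 is left out of them, having 1 read of Ms4a2 and 38 of Mcpt4. There were 162, 184, 201 and 276 reads of Fcer1a per 100 of Ms4a2 in Tcn2-/- IMQ skin and 249, 138, 118, 271 and 172 in IMQ skin, against 29.4 and 16.4 in control replicates 2 and 3. The balance of both IgE receptor chain genes thus differed between the treated libraries and these 2 controls without overlap. Both controls had Xist reads, as did IMQ replicate 1 alone among the treated libraries. How many other gene pairs part in this way was not counted. Mrgprb2 had 7.41, 15.6, 3.59 and 3.79 reads per 100 of Mcpt4 in Tcn2-/- IMQ skin, 6.29, 2.41, 4.64, 5.07 and 4.04 in IMQ skin, and 14.6 and 11.2 in the 2 controls. IMQ libraries lay below both controls, and Tcn2-/- IMQ replicate 2 lay above them. The chymases kept a narrower ratio, with 75.6 to 90.8 reads of Cma1 per 100 of Mcpt4 in Tcn2-/- IMQ skin, 83.8 to 102 in IMQ skin, and 76.3 and 61.7 in the 2 controls. Reads of Ms4a2 per 100 of Mcpt4 were 3.12 to 4.93 in Tcn2-/- IMQ skin, 3.35 to 8.63 in IMQ skin, and 8.26 and 9.08 in the 2 controls.

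**Figure D4:**
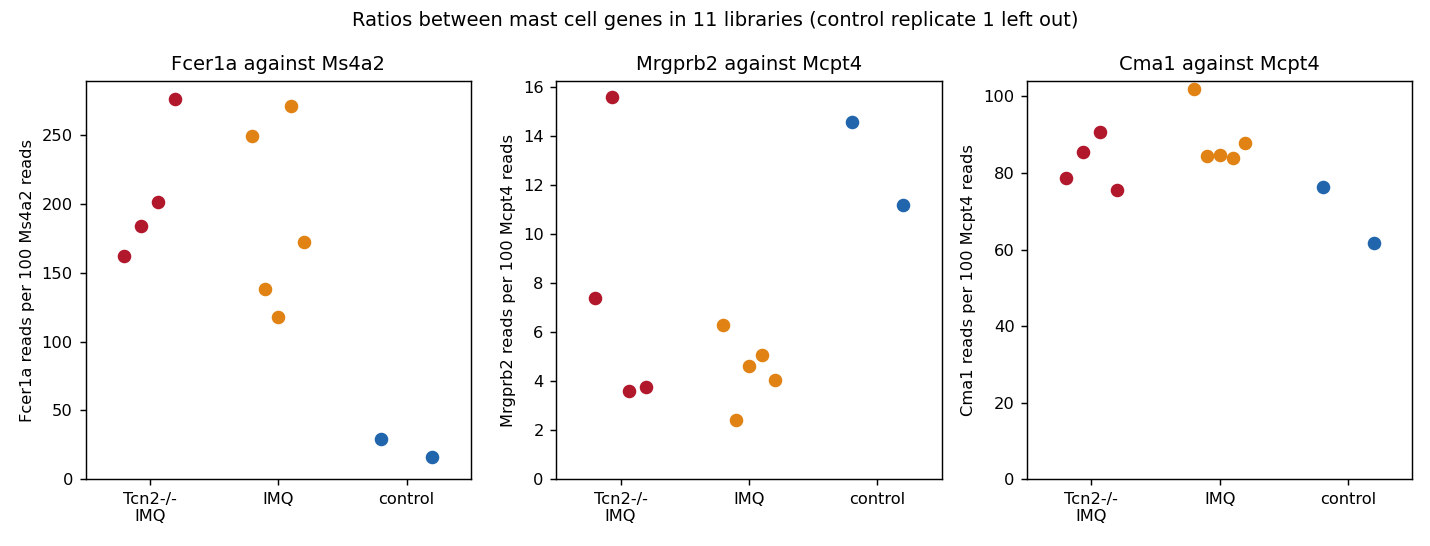
Reads of one mast cell gene per 100 reads of another (linear axes from 0) in 4 Tcn2-/- IMQ, 5 IMQ and 2 control libraries; points are libraries, and control replicate 1 is not drawn. The 9 treated libraries lie at 118 to 276 reads of Fcer1a per 100 of Ms4a2, above the 29.4 and 16.4 of the controls.

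Fcer1a is also made by basophils, so their markers are given beside it. Mcpt8, the protease that defines mouse basophils, had 1, 0, 1 and 0 counts in Tcn2-/- IMQ skin, 8, 5, 19, 15 and 78 counts in IMQ skin, and 0, 6 and 0 counts in controls. Prss34, another basophil protease, had 1, 0, 1 and 8 counts in Tcn2-/- IMQ skin, 2, 0, 19, 21 and 8 counts in IMQ skin, and 0, 6 and 0 counts in controls. Fcer1a had 110, 68, 179 and 116 counts in the same Tcn2-/- IMQ libraries, where Mcpt8 was at or near 0. In IMQ skin, where Fcer1a was also higher than in controls, Mcpt8 was higher than in controls by 3.66 on the log2 scale (SE 1.26, adjusted p = 0.196), and it was at −5.34 in Tcn2-/- IMQ against IMQ skin (SE 1.32, adjusted p = 0.153). The part of basophils in the Fcer1a values was not tested. The basophil list without Cpa3 held 9 genes, of which 4 were at 0 in control replicate 1, and summed to 45.2 to 79.4 CPM in Tcn2-/- IMQ skin, 55.4 to 117 CPM in IMQ skin and 25.7 to 78.9 CPM in controls. With Cpa3 included the list held 10 genes, of which 8 were tested, and none passed in any of the 3 comparisons. Their medians, Cpa3 included, were 0.31, −0.54 and −0.05 for IMQ against control, Tcn2-/- IMQ against IMQ and Tcn2-/- IMQ against control. Without control replicate 1 the medians against control were 0.24 for IMQ and −0.28 for Tcn2-/- IMQ, over 9 genes tested, again with Cpa3.

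Other genes of mast cells were then counted from a list of 20, of which 19 were in the table and 16 were tested. None passed in the 3 comparisons, with medians of 0.63, −0.35 and 0.07 in the same order, and 11 of the 19 were lowest in control replicate 1. Without that library 17 were tested, and the medians against control were 0.34 for IMQ and −0.28 for Tcn2-/- IMQ, the second of opposite sign. Hdc, which makes histamine, stood at 11.9, 6.19, 24.1 and 20.7 CPM in Tcn2-/- IMQ skin, at 65.0, 24.4, 22.7, 20.4 and 36.0 CPM in IMQ skin, and at 1.43, 15.3 and 8.01 CPM in controls. All IMQ libraries lay above all controls, and the change of 2.03 (log2) missed the threshold (SE 0.699, adjusted p = 0.195). Srgn encodes serglycin, the proteoglycan core that packs granule proteases and that many leukocytes make. It stood at 12.9 to 40.3 CPM in Tcn2-/- IMQ skin and 55.8 to 257 CPM in IMQ skin, without overlap (−2.13, SE 0.626, adjusted p = 0.216). Smpdl3a, a phosphodiesterase, was at 1.43 in IMQ against control skin (adjusted p = 0.0764) and the serotonin transporter Slc6a4 at −0.91 (adjusted p = 0.117). Cd63, a granule membrane protein, was at 0.58 in Tcn2-/- IMQ against control skin (adjusted p = 0.310). Tpsab1, a second tryptase, had 11 to 44 counts in Tcn2-/- IMQ skin, 7 to 56 counts in IMQ skin and 0 to 24 counts in controls.

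Of 18 genes that relay signals of the IgE receptor, none passed in IMQ against control or in Tcn2-/- IMQ against IMQ skin, and 1 fell in Tcn2-/- IMQ against control skin. That gene was Grap2, an adaptor that T cells use as well. It stood at 2.44, 1.19, 0.742 and 1.34 CPM in Tcn2-/- IMQ skin, at 3.67, 8.28, 6.06, 6.55 and 4.8 CPM in IMQ skin, and at 1.81, 18.5 and 17.6 CPM in controls (−3.14 against control, SE 0.654, adjusted p = 0.0418). Tcn2-/- IMQ libraries overlapped the controls through control replicate 1, and lay below all IMQ libraries (−2.03, SE 0.593, adjusted p = 0.211). Without control replicate 1 Grap2 passed in that comparison too (adjusted p = 0.0413). The medians of this list were 0.42, −1.002 and −0.45, and without control replicate 1 those against control were 0.12 for IMQ and −0.85 for Tcn2-/- IMQ. The phospholipase Plcg2 was at −0.68 in Tcn2-/- IMQ against IMQ skin (adjusted p = 0.310).

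Of 18 genes of histamine and lipid mediators 16 were tested and none passed, with medians of 0.37, −0.67 and −0.13. The medians against control without control replicate 1 were 0.018 for IMQ and −0.42 for Tcn2-/- IMQ. Ptgdr, a receptor for prostaglandin D2, came nearest. It stood at 1.90, 2.20, 0.556 and 0.817 CPM in Tcn2-/- IMQ skin, at 1.05, 1.29, 0.909, 1.21 and 0.300 CPM in IMQ skin, and at 3.63, 4.38 and 5.11 CPM in controls. Both treated groups lay below the controls without overlap (−2.19 for IMQ, SE 0.498, adjusted p = 0.0580, and −1.67 for Tcn2-/- IMQ, SE 0.526, adjusted p = 0.166). Ptgdr2, the other prostaglandin D2 receptor, was at −1.93 in Tcn2-/- IMQ against IMQ skin (adjusted p = 0.411), and the histamine-degrading enzyme Hnmt at −0.97 (adjusted p = 0.486). Ptges, a prostaglandin E synthase, was at 1.14 in Tcn2-/- IMQ against control skin (adjusted p = 0.414).

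Of 22 genes of mast cell growth, recruitment and lineage 19 were tested and none passed, with medians of 0.23, −0.37 and −0.16. Leaving out control replicate 1 gave medians against control of 0.011 for IMQ and −0.34 for Tcn2-/- IMQ. Il33, an alarmin that acts on mast cells through its receptor ST2, stood at 27.7, 14.4, 138 and 217 CPM in Tcn2-/- IMQ skin, at 346, 126, 195, 91.9 and 205 CPM in IMQ skin, and at 22.9, 35.3 and 44.4 CPM in controls. All IMQ libraries lay above all controls (2.497, SE 0.804, adjusted p = 0.167), while Tcn2-/- IMQ replicate 1 lay among the controls, replicate 2 below all of them and replicates 3 and 4 within the span of the IMQ libraries. Tslp, an epithelial cytokine, was at 1.65 in IMQ against control skin (adjusted p = 0.289). Mitf, a transcription factor of melanocytes and mast cells, was at −0.47 in Tcn2-/- IMQ against IMQ skin (adjusted p = 0.341), and the cytokine receptor chain Csf2rb at −1.25 (adjusted p = 0.420). Il9r was at −2.14 in Tcn2-/- IMQ against control skin (adjusted p = 0.241).

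The genes whose pattern was most like that of the proteases were sought by the root-mean-square difference, over the 12 libraries, between a gene's centred log2 CPM and the mean of the 4 proteases. The protease mean itself lay at −5.34 in control replicate 1 and between −0.84 and 1.33 elsewhere, so that library weighs heavily in the measure. The nearest gene was Mrgprb1, of the same receptor family as Mrgprb2, at a difference of 0.41 on the log2 scale. Sema3a (0.47), Lum (0.49), Flt4 (0.52), Mrgprx2 (0.52), Tll1 (0.57), Pf4 (0.58) and Nat8f3 (0.58) followed, where the median over all 18147 genes was 1.78. Lum encodes lumican, a matrix proteoglycan of fibroblasts, and Flt4 a receptor of lymphatic endothelium. Of the other 6 mast cell genes Ms4a2 ranked ninth (0.60), Fcer1a 101st (0.81), Gata2 207th (0.92) and Hpgds 1125th (1.25). Mrgprb2 (1.64) and Kit (1.88) ranked far lower, at 5450 and 12096. Mrgprb1 had 16.5, 8.40, 20.8 and 19.4 CPM in Tcn2-/- IMQ skin, 18.8, 12, 27.6, 18.3 and 22.5 CPM in IMQ skin, and 0.330, 29.3 and 22.9 CPM in controls.

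Of the lists not yet counted, none of 10 melanocyte, 10 endothelial, 10 macrophage, 12 skeletal muscle and 10 fibroblast genes passed in the 3 comparisons. Their medians in IMQ against control skin were −1.92, 1.27, 0.89, −1.43 and 0.89. In Tcn2-/- IMQ against IMQ skin they were 0.20, −0.70, −0.65, 1.68 and 0.08, and in Tcn2-/- IMQ against control skin −1.83, 0.57, 0.26, 0.56 and 1.03. Without control replicate 1 the medians in IMQ against control skin were 1.19, 0.77, 0.36, −1.34 and 0.40, and in Tcn2-/- IMQ against control skin 1.38, 0.22, −0.30, 0.60 and 0.57. The melanocyte medians thus changed sign in both, and the macrophage median did in Tcn2-/- IMQ against control skin. Of 8 tested genes of type 2 lymphocytes 1 fell in Tcn2-/- IMQ against control skin, the interleukin-7 receptor gene Il7r (−2.74, adjusted p = 0.0330), and none passed elsewhere (medians −0.52, −0.58 and −0.29). In the fit without control replicate 1, Cd3e, a chain of the T cell receptor complex, fell there too (−3.25, adjusted p = 0.0125), and the medians against control were −0.88 for IMQ and −0.27 for Tcn2-/- IMQ. Il7r and Cd3e are not particular to type 2 cells, and the cytokine genes Il5 and Il13 of this list did not pass the filter on low counts. Of 10 epidermal genes 1 rose (Krt1) and 1 fell (Krt15) in IMQ against control skin and 1 rose (Krt1) in Tcn2-/- IMQ against control skin. With control replicate 1 left out Krt1 no longer passed (adjusted p = 0.136 for IMQ and 0.0793 for Tcn2-/- IMQ), and Krt15 did (adjusted p = 0.0294). The epidermal medians were 0.80, 0.21 and 0.94, and without that library those against control were 0.90 for IMQ and 1.07 for Tcn2-/- IMQ.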

How the data were processed

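RNA of 12 mouse skin libraries was captured by oligo(dT), fragmented, primed with random hexamers and amplified by PCR, per the labels' protocols. The deposited table holds whole-number counts per gene, not normalized, with coordinates, and the genome build was GRCm39 per the submitters' processing notes. The aligner, the counting program, the annotation and the strand setting are stated in none of the sources used here, so reads of similar or antisense genes may be misassigned. Groups and replicate numbers came from the titles, and 0 columns were left unmapped. Rows without a symbol (201 genes) stayed in the tests.

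Models were fitted with edgeR 4.0.16 (R 4.3.3). Of the genes, filterByExpr kept 18147 genes, TMM factors were 0.927 to 1.12, and 1 quasi-likelihood model with a mean per group was fitted to all 12 libraries (glmQLFit, glmQLFTest, 2-sided). Adjusted p-values are Benjamini-Hochberg values over all genes tested, with calls at 0.05. Log2 CPM for pattern likeness had a prior count of 2. DESeq2 1.42.0, RLE factors, no filter, fits of only the groups compared, a replicate block, a sex term and leaving out libraries were the alternatives. The fits were also run on simulated counts, and the outcome is not given here. Floors (3 counts) cover counting error only, since PCR copies cannot be told from separate molecules. SDs and SEs rest on the spread between libraries. The members and lists were chosen with earlier results of these data known. Genes named beside the 10 were, per list and comparison, up to 3 called genes or the 2 with the smallest p, a few source markers, the 8 genes nearest in pattern, and genes said to have been chosen after their values were seen. Not every gene that this rule picks is reported here. Identical libraries were looked for, and 0 pairs were found.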

Additional observations from a re-analysis of the deposited data

Results flagged for a closer look

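In IMQ skin, Kit in replicate 1 stood at 19.6 CPM, away from the other 4 libraries at 30.1 to 32.3 CPM, with a gap of 0.830 of the group's range. This was 1 of 20 checks over the 10 genes and the 2 groups of 4 or more libraries, and chance gives about 1 flag in 20. IMQ replicate 1 is the IMQ library with Xist reads. It had the highest Hdc level of the 12 libraries, 65.0 CPM, and the highest level of Fcer1a, 12.4 CPM.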

How the results depend on the processing

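No result on Tcn2-/- IMQ against IMQ skin changed direction for any of the 10 genes. The number of the 10 called stayed at 0 in each edgeR setting except the one that left out both libraries highest in mitochondrial share, where it was 1 for IMQ against control. Under DESeq2 it was 1 for IMQ against control and 2 for Tcn2-/- IMQ against control. Leaving out each library in turn kept it at 0 in all 3 comparisons. Genes called over all genes numbered 223, 5 and 238 for IMQ against control, Tcn2-/- IMQ against IMQ and Tcn2-/- IMQ against control. In that order the numbers were 1126, 600 and 1050 with DESeq2, 541, 42 and 102 with only the groups compared, and 46, 0 and 20 with the replicate block. With the sex term they were 143 and 27 for the comparisons against control. Without both libraries highest in mitochondrial share they were 51 for Tcn2-/- IMQ against IMQ and 396 for Tcn2-/- IMQ against control, and without the filter 17 for Tcn2-/- IMQ against IMQ. Leaving out single libraries gave 8 to 397, 1 to 95 and 3 to 428. The 95 and 428 came without control replicate 1, the 397 without IMQ replicate 2, the 1 without Tcn2-/- IMQ replicate 1 or 4, and the 8 and 3 without control replicate 3. Added after the data were seen, the 9 libraries with Y-linked reads gave 0, 30 and 0, and a sex term without control replicate 1 gave 5, 99 and 0. The cause of these shifts was not tested.

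Directions turned in 20 cases, none of them called. In IMQ against control Ms4a2 ranged from −0.47 (without control replicate 1) to 0.57 when libraries were left out singly. It was −0.47 without both libraries, at −0.064 without IMQ replicate 3 and at −0.57 with the sex term and no control replicate 1. That last fit also gave Mcpt4 −0.56, Cma1 −0.005, Gata2 −0.26 and Hpgds −1.65, and the Y-linked libraries gave Mrgprb2 0.78. In Tcn2-/- IMQ against control Gata2 ranged from −0.23 (without control replicate 1) to 0.84 when libraries were left out singly, and was −0.13 without both libraries, and Ms4a2 at 1.83 with the sex term. The Y-linked libraries, with 1 control, gave Ms4a2 5.79, Mrgprb2 0.90 and Hpgds 1.52. The sex term without control replicate 1 gave Mcpt4 −0.96, Cma1 −0.44, Tpsb2 −0.15, Cpa3 −0.61 and Gata2 −0.78. The replicate block called none of the 10 genes. Deviations of same-numbered libraries of different groups had correlations of −0.53 to 0.42. Libraries with different numbers were not compared, so these values cannot tell whether the numbers pair samples. Levels below 1 CPM rest on fewer than 20 reads.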

Other observations

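Ptgds, the prostaglandin D synthase of the lipocalin type, was on the list of mediators and was chosen here after its values were seen. It stood at 3.33, 11.7, 1.85 and 0.525 CPM in Tcn2-/- IMQ skin, at 2.04, 13.1, 4.73, 2.61 and 7.44 CPM in IMQ skin, and at 47.8, 2.81 and 3.29 CPM in controls. Its highest libraries in each group, Tcn2-/- IMQ replicate 2, IMQ replicate 2 and control replicate 1, were also the highest of their groups for the melanocyte gene Dct, at 160, 83.2 and 408 CPM. Hpgds, the other enzyme that makes prostaglandin D2, was at its lowest in control replicate 1, at 11.3 CPM.

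Ms4a2 in control replicate 1 rested on 1 read, Cma1 on 11, Cpa3 on 13, Tpsb2 on 22 and Mcpt4 on 38, while Mrgprb2 had 50 reads there, more than any of these 5 genes. In control replicates 2 and 3 Mrgprb2 had 222 and 165 reads, beside 1525 and 1476 of Mcpt4.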
